A study of Hordeum vulgare with 18 samples.

Results

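Flag leaves of the barley (Hordeum vulgare) cultivar Karl at 14 days post anthesis (14 d) were compared with Karl flag leaves at 7 d. The 3 libraries of 14 d (replicates A, B and C) and the 3 of 7 d (replicates 1, 2 and 3) were chosen by their labels alone, and make up 6 of the 18 libraries of the series. The other 12 come from Karl at 21 d and from the line 10_11, which is known to be near-isogenic to Karl, at 7, 14 and 21 d, with 3 libraries each. All plants grew in a glasshouse in pots of 3 plants, at about 22 °C by day and 18 °C by night with days lengthened to 16 h where needed, and received fertilizer and nitrate up to anthesis. Each library was made from a pool of 10 or more leaves, each from a shoot tagged with its own day of anthesis. A pool gives 1 value for leaf tissue of all cell types, so that fewer cells of a type and less RNA per cell cannot be told apart. The labels call the pools independent samples but do not say whether they share pots. The p-values therefore measure the spread between pools.

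The flag leaf is the uppermost leaf of a cereal shoot and a main source of carbon and nitrogen for the growing grain. After anthesis it first photosynthesizes at a high rate and then senesces. In senescence, chloroplasts are dismantled, chlorophyll and protein are broken down, and amino acids leave through the phloem for the ear. Transcripts of photosynthesis genes are known to be among the most abundant of a green leaf and to decline with senescence, while those for proteases, transporters and stress proteins are known to increase.

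The 13626 genes of the deposited table carry barley identifiers without names or descriptions, and 0 were found in the gene reference at hand. Genes are therefore given by identifier with no role. Lists of photosynthesis, proteolysis or cell type marker genes could not be applied, and the leaf label could not be checked against markers. Transcripts were measured by MARS-seq, in which a tag near the 3′ end of each transcript is read, so that length does not enter the count. Levels are CPM, counts brought to a common library total that is scaled by the TMM method, which assumes that most genes do not change.

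At 49 genes that separated the lines without overlap at both 7 d and 21 d, by at least 2 on the log2 scale, each library was placed between the mean of Karl (0) and that of 10_11 (1). The Karl libraries of 14 d had median positions of -0.04 to 0, as their label says, and 10_11 14 d replicates A and B lay at 1. The library labelled 10_11 14 d replicate C lay at 0.0794, with Karl, so the main medians and counts for 10_11 at 14 d are given with and without it.

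The 3 libraries of 14 d held 1381441 to 2088696 counts and the 3 of 7 d 599513 to 947762, so the groups did not overlap in depth. Karl libraries of 14 d also carry letters in the labels and those of 7 d numbers, and depth, labelling and day cannot be told apart. At the 5144 genes with a mean of at least 20 CPM over the series, the median absolute log2 difference between 2 libraries was 0.417 to 0.524 for the 9 pairs of a 14 d with a 7 d library. It was 0.213 to 0.298 within 14 d and 0.322 to 0.437 within 7 d. These differences include counting noise, which is larger in the shallower 7 d libraries. Scaled to that noise, as chi-square per degree of freedom, the pairs gave 16.6 to 24.9 across days. They gave 4.04 to 12.4 within 14 d and 3.33 to 9.82 within 7 d. By this measure, which grows with depth, pairs across days differed more than any pair within a day. By the median difference, the ranges across days and within 7 d overlapped.

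Of 9973 genes with enough counts to test, 557 were higher and 504 lower in Karl at 14 d than at 7 d (edgeR quasi-likelihood test, Benjamini-Hochberg adjusted p under 0.05). These are 5.59% and 5.05% of the genes tested, 10.6% together. The genes that rose changed by a median log2 of 1.72, with quartiles of 1.22 and 2.53. Those that fell changed by a median of -1.20, with quartiles of -1.66 and -0.93. Among the genes that rose, 485 did so at least 2-fold, 223 at least 4-fold and 97 at least 8-fold. Among those that fell the counts were 338, 78 and 31. Over all 9973 genes tested, 1794, 495 and 207 changed by as much in either direction. The folds of the called genes are estimates from the libraries that chose them. Tested by edgeR against a change of at least 2-fold, 30 genes passed as higher and 31 as lower. The median gene that rose had a mean of 50.2 CPM at 14 d and 15.0 CPM at 7 d, and the median gene that fell 46.9 CPM at 14 d and 116 CPM at 7 d. The falls called were hence smaller in fold. The median SE was 0.42 for the genes that rose and 0.29 for those that fell, so smaller changes could pass among the falls. Genes that fell were the more abundant of the sets at 7 d and not at 14 d, and each set is high by its choice on one of the days.

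The libraries of the days did not overlap for 553 of the 557 genes that rose and 487 of the 504 that fell. The choice of the genes by these same libraries favours this. Over all genes tested the days did not overlap for 31.2%, 17.1% with 14 d above 7 d and 14.1% with 14 d below. Of the genes that rose, 17 had 0 counts in all libraries of 7 d, where 3 counts over the group would have been 1.56 CPM. Of those that fell, 1 had 0 counts in all libraries of 14 d. Among all tested genes 61 were at 0 in every 7 d library and 11 in every 14 d library, in groups that also differ in depth.

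The number called depended on the libraries and on the scaling. When 7 d replicate 1 or 3 was left out it came to 485 or 532 genes, and when 14 d replicate A or C was left out to 520 or 469. With every library of the series thinned to the smallest library total, 342 genes rose and 307 fell of 5392 tested. Of the 850 called genes that could still be tested, all 850 kept their sign, though the thinned counts are part of those that chose them. With libraries scaled by their total alone, the median of all genes moved by 0.43 on the log2 scale and 1757 genes were higher and 195 lower. The genes called lower with TMM all stayed below 0 under that scaling, 195 of them called. The 557 called higher all stayed called, which an upward move of all genes favours. Directions given here are thus relative to the bulk of the genes.

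**Figure D1:**
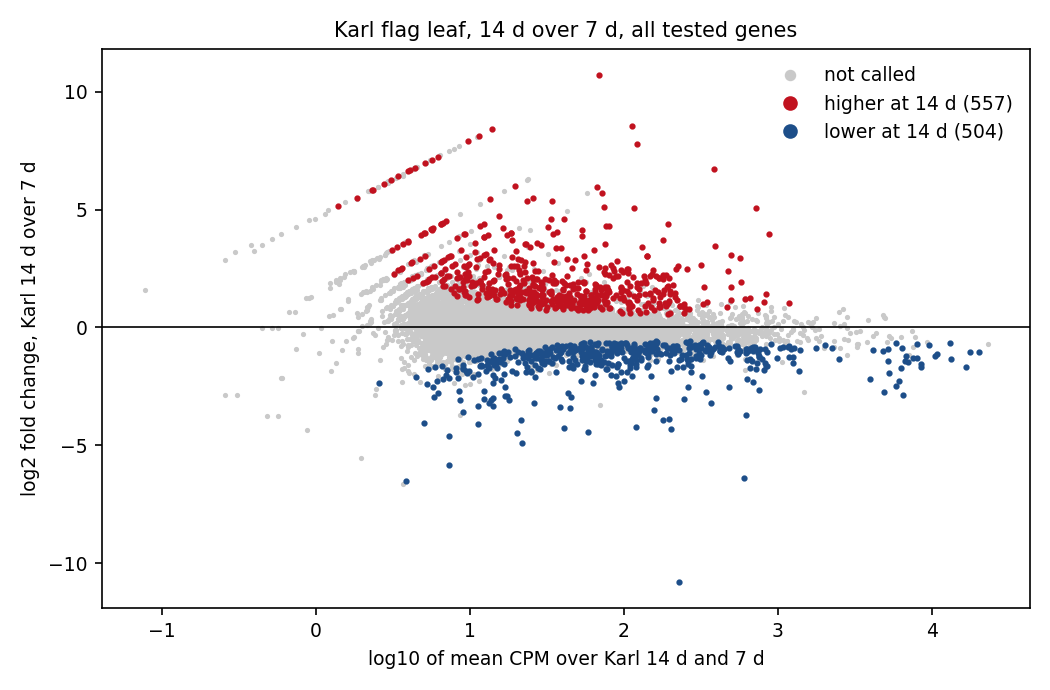
Log2 fold change of Karl at 14 d over 7 d (y axis) against the log10 of the mean CPM of both days (x axis), 1 point per tested gene, leaving out 3 genes with 0 counts in all 6 libraries. The 557 genes called higher lie mostly at low and middle levels, and most called genes at the highest levels are among the 504 called lower.

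The share of genes that fell was highest among abundant transcripts, though 335 of the 504 genes that fell ranked below the 1000 most abundant. With genes ranked by their mean level over all 18 libraries, 34 of the 100 most abundant fell and 2 rose, and the median log2 change of the 100 was -0.60. In ranks 101 to 500, 75 of 400 genes fell and 22 rose, with a median of -0.27. In ranks 501 to 1000 the numbers were 60 and 57 of 500, with a median of -0.08. Further down the rises outnumbered the falls, with 132 and 119 of 1500 genes in ranks 1001 to 2500, 174 and 112 of 2500 in ranks 2501 to 5000, and 170 and 104 of the remaining 4973. The median change of the last class was 0.09, against 0.01 for all genes tested.

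The share of genes called went down with the level, at 36.0% of the first class and 5.51% of the last. Low levels rest on few counts, particularly at 7 d, so this decline cannot be read as a smaller response. With library totals alone, which moves all genes alike, the median of the 100 most abundant was -0.17 against 0.44 for all genes, and 23 of the 100 were called lower and 13 higher.

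**Figure D2:**
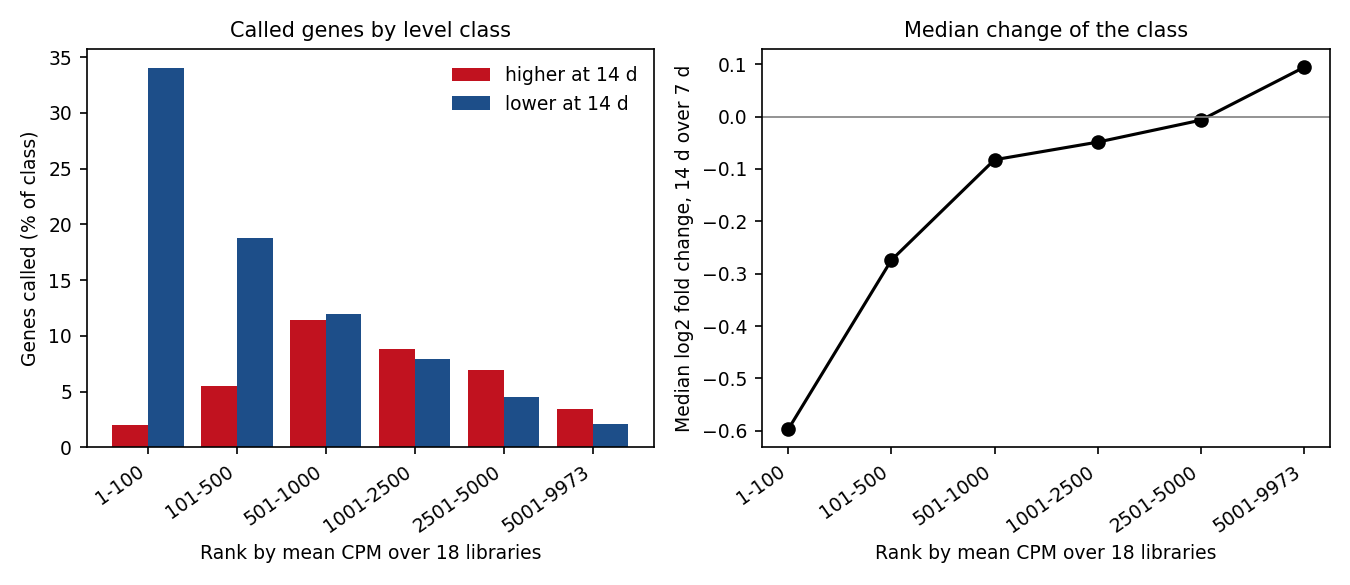
Left, percent of genes called higher or lower in Karl at 14 d against 7 d (y axis) in 6 classes of genes by rank of mean CPM (x axis). Right, median log2 fold change of all genes of the class. The first class has 34.0% lower and 2.00% higher, and the median change goes from -0.60 in the first class to 0.09 in the last.

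The pool of transcripts was spread over more genes at 14 d. Thinned to the same 599513 counts, 288, 226 and 279 genes made up 50% of the counts in 14 d replicates A, B and C, against 100, 129 and 91 genes in 7 d replicates 1, 2 and 3. The means were 264 ± 33.5 and 107 ± 19.9 genes (SD, n = 3 each; two-sided exact permutation p = 0.1, which is the lowest that the 20 possible splits can give). The groups did not overlap, replicate B was the lowest of 14 d and replicate 2 the highest of 7 d. Genes with at least 1 count numbered 12494, 12455 and 12504 at 14 d and 11607, 11909 and 11648 at 7 d at that depth, a mean difference of 763 (exact permutation p = 0.1). Every gene of the deposited table had 6 or more counts in at least 1 library. Genes present mainly in the shallower 7 d libraries may reach that bound less often. Thinning does not undo this, and its part in the difference was not tested. The 100 genes with the highest count of each library took 37.5% ± 1.57 of the counts at 14 d and 49.5% ± 2.05 at 7 d (SD, n = 3 each; exact permutation p = 0.1). The 3 tests concern related measures of the same 6 libraries, and none can pass a threshold of 0.05 with 3 against 3.

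As a description of their size, the 504 genes that fell held 20.6%, 23.3% and 20.9% of all counts in 14 d replicates A, B and C, against 39.99%, 36.4% and 40.3% in 7 d replicates 1, 2 and 3. The 557 genes that rose held 7.80%, 5.44% and 7.18% at 14 d and 1.53%, 1.67% and 1.68% at 7 d. These shares do not use the TMM scaling. Replicate B of 14 d lay nearest to 7 d in both sets. Of the summed fall in CPM of the genes that fell, 75.9% lay in the 34 lower genes among the 100 most abundant and 38.2% in the 10 largest falls. The 10 largest rises made up 21.0% of the summed rise, so the gain was spread over more genes than the loss.

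The identifiers named are, in each direction, the called gene with the largest fold change and the one with the largest difference in mean CPM, among genes whose days did not overlap and whose higher day had a mean of 20 CPM or more. This condition was met by 432 genes that rose and 444 that fell. Each identifier carries its chromosome, and the 4 genes lie on chromosomes 3, 4, 5 and 6.

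The largest fall in CPM was that of HORVU5Hr1G051010, on chromosome 5 and the 4th most abundant gene of the series. It had 7297, 8902 and 7639 CPM in 14 d replicates A, B and C, against 28662, 18336 and 29128 CPM in 7 d replicates 1, 2 and 3. Every 14 d library lay well below every 7 d library. The log2 fold change was -1.68 (SE 0.23, edgeR adjusted p = 0.000415). The gene took 0.873% of all counts at 14 d and 2.10% at 7 d. At 21 d Karl held 5374 to 7203 CPM, and the change from 14 d to 21 d did not pass the test (log2 fold change -0.33, edgeR adjusted p = 0.58).

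HORVU6Hr1G024230, on chromosome 6, had the largest fold fall. It had 0, 0 and 0.646 CPM in 14 d replicates A, B and C, against 353, 369 and 642 CPM in 7 d replicates 1, 2 and 3. The 14 d values rest on 1 count in all, against 874 counts at 7 d. The ratio of 7 d over 14 d was 2687 with a 95% counting interval of 481 to 106234, which covers counting error only (edgeR adjusted p = 0.000991 for the change). In Karl at 21 d it stayed at 0 to 0.626 CPM.

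Among the rises, HORVU4Hr1G059390 on chromosome 4 had the largest in CPM. It had 1656, 1637 and 1653 CPM in 14 d replicates A, B and C, against 115, 35.1 and 160 CPM in 7 d replicates 1, 2 and 3. The 14 d libraries were nearly equal, with a mean of 1649 ± 10.5 CPM, against 103 ± 63.1 CPM at 7 d (SD, n = 3 each). The log2 fold change was 3.98 (SE 0.63, edgeR adjusted p = 0.0014). At 21 d the Karl libraries were wide apart, with 620, 2625 and 403 CPM in replicates A, B and C, so the mean level at 21 d lies within a spread as large as itself.

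HORVU3Hr1G059030 on chromosome 3 had the largest fold rise and the least even one. It had 275, 24.4 and 116 CPM in 14 d replicates A, B and C and 0 counts in every 7 d library. Its mean at 14 d was 139 ± 127 CPM (SD, n = 3). With counts pooled over the libraries of a day, 826 counts at 14 d were at least 89.6-fold over a floor of 3 counts at 7 d (edgeR adjusted p = 0.0244 for the change). The bound was 39.9-fold without 14 d replicate A and 55.2-fold and 59.5-fold without 7 d replicates 1 and 3, bounds added after the data were seen. The call was lost without 7 d replicates 1, 2 or 3 (edgeR adjusted p = 0.0846, 0.0568 and 0.0749) and without 14 d replicate A (0.0791). Karl at 21 d held 41.9, 80.8 and 6.10 CPM.

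**Figure D3:**
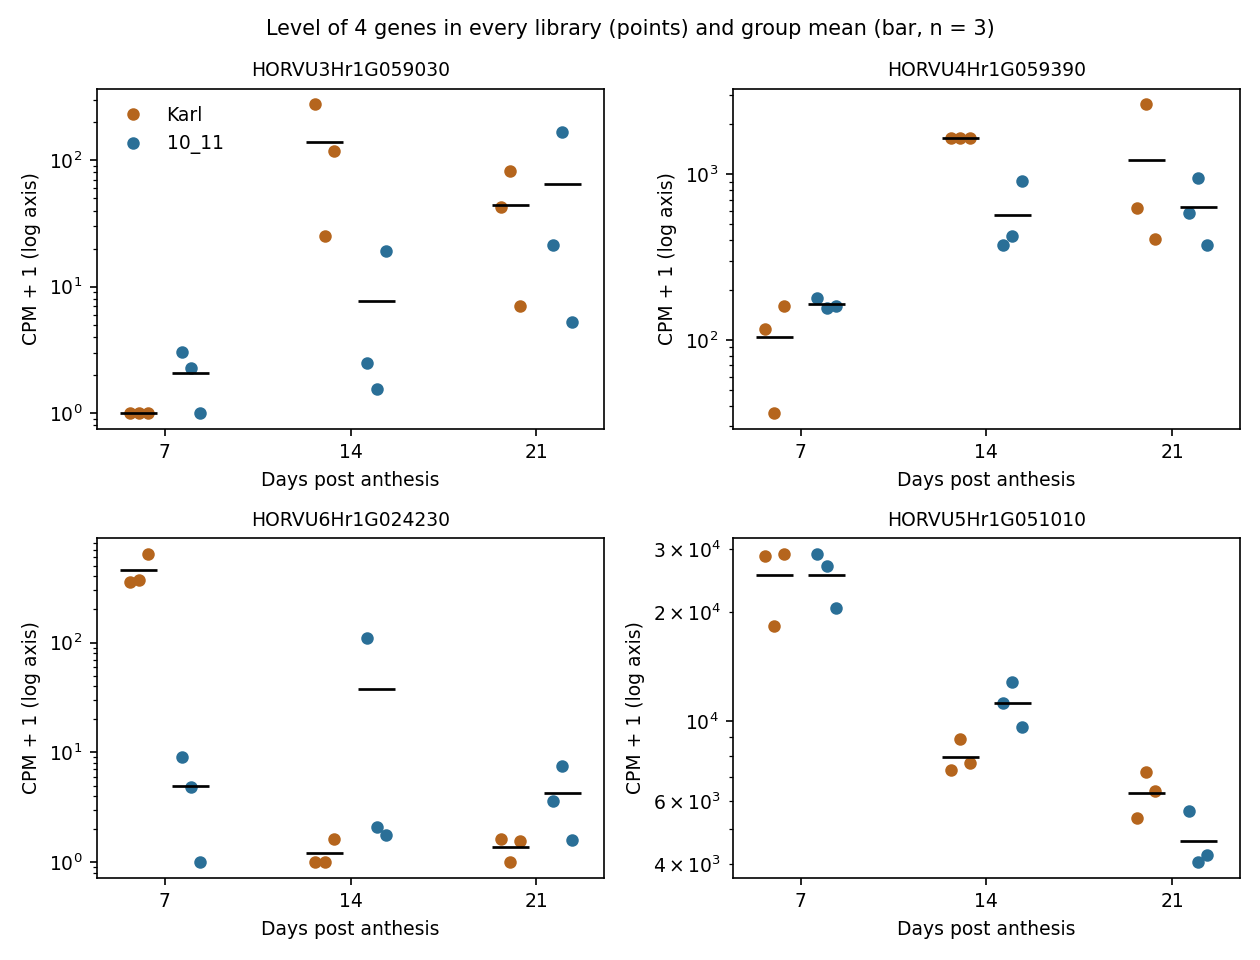
CPM plus 1 on a log axis (y axis) at 7, 14 and 21 days post anthesis (x axis) of the 4 named genes in Karl and 10_11, with 1 point per library and a bar at the group mean (n = 3). In Karl the 14 d and 7 d points do not overlap for any of the 4, HORVU4Hr1G059390 has nearly equal points at 14 d, and HORVU6Hr1G024230 lies at 353 to 642 CPM in the Karl 7 d libraries and below 1 CPM in those of 14 and 21 d.

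In the authors' deposited table, whose fold changes run 7 d over 14 d, 1155 genes had an adjusted p under 0.05 for this pair, 569 higher and 586 lower at 14 d. Of the genes called here, 485 of the 557 that rose and 488 of the 504 that fell were among them with the same direction. In the authors' deposited table HORVU5Hr1G051010 had a log2 fold change of 1.68 and an adjusted p of 8.06e-12, and HORVU4Hr1G059390 -3.99 and 4.14e-09. HORVU6Hr1G024230 had 11.27 and 1.29e-06 in the authors' deposited table, and HORVU3Hr1G059030 -8.90 and 0.000206. Both sets of values come from the same libraries.

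From 14 d to 21 d the same sets of genes changed little in Karl by their medians. The 557 genes that rose had a median log2 change of 1.72 from 7 d to 14 d and of 0.01 from 14 d to 21 d, and the 504 that fell had -1.20 and -0.22. Over all genes tested these medians were 0.01 and -0.02. The intervals share the 14 d libraries that chose the genes, so the later medians are a description. As shares of counts, the genes that fell made up 38.9% ± 2.18, 21.6% ± 1.51 and 18.9% ± 2.15 at 7, 14 and 21 d in Karl. Those that rose made up 1.62% ± 0.0845, 6.81% ± 1.22 and 7.58% ± 1.01 (SD, n = 3 each).

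The libraries of 10_11 were not used to choose these genes, though they enter the shared spread and the filter. They held 1864058 to 3231258 counts at 14 d and 353982 to 941922 at 7 d, and carry letters and numbers as in Karl. Depth, labelling and day thus cannot be told apart in 10_11 either. The 557 genes that rose in Karl had a median log2 change of 1.72 from 7 d to 14 d in Karl and 0.79 in 10_11, and the 504 that fell -1.20 in Karl and -0.68 in 10_11. Over all genes tested the medians were 0.01 in Karl and 0.03 in 10_11. Karl libraries chose the genes, which by itself favours larger changes in Karl than in 10_11. By 21 d against 7 d the medians of 10_11 had reached 1.55 and -1.42 for the 2 sets, next to 1.79 and -1.40 in Karl.

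As shares of counts the genes that fell in Karl held 27.0%, 26.7% and 23.6% in 10_11 14 d replicates A, B and C, against 41.6%, 38.5% and 38.6% in 10_11 7 d replicates 1, 2 and 3. Those that rose in Karl held 3.36%, 3.49% and 4.85% in 10_11 at 14 d and 1.66% to 1.71% at 7 d. Both sets thus separated the days in 10_11 without overlap, where the days also differ in depth and labelling. At 14 d its libraries lay between the 7 d libraries and the 14 d libraries of Karl, an order that the choice of the sets by Karl favours. The closest to Karl at 14 d was the library labelled replicate C, with 23.6% against 23.3% in Karl 14 d replicate B. Without this library, which lay with Karl at genes that separate the lines, the medians in 10_11 were 0.58 for the 598 genes then higher in Karl and -0.62 for the 510 lower, next to 0.02 for all genes tested.

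**Figure D4:**
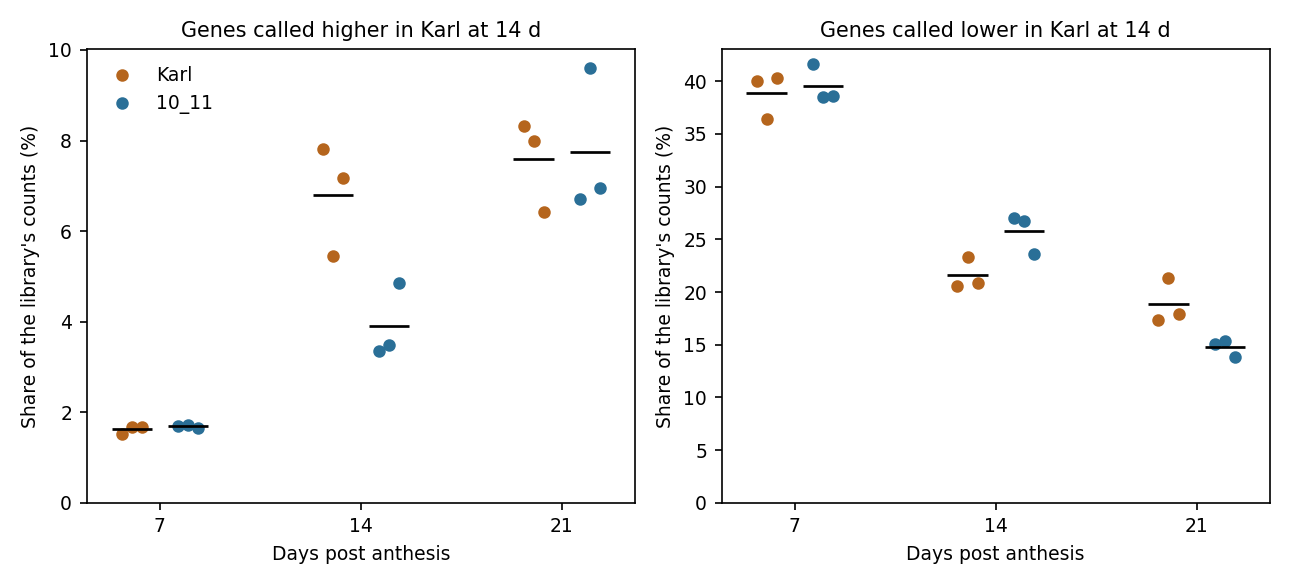
Share of a library's counts (y axis, percent) held by the 557 genes called higher (left) and the 504 called lower (right) in Karl at 14 d against 7 d, at 7, 14 and 21 days post anthesis (x axis) in Karl and 10_11. Points are libraries and bars group means (n = 3); the Karl points of 7 and 14 d chose the genes, and the 10_11 points of 14 d lie between its 7 d and 21 d points.

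Gene by gene, 72 of the 557 genes (12.9%) were also called higher in 10_11 at 14 d against 7 d, 62.1% of the 116 called there, where 1.16% of all genes were called. Of the 504 genes 91 (18.1%) were also called lower, 72.2% of the 126 called there, where 1.26% of all genes were. Of these 504 genes 1 was called higher in 10_11. Leaving out replicate C of 10_11 at 14 d, the shared genes were 23 of 35 called higher in 10_11 and 26 of 32 called lower, where 0.337% and 0.308% of 10382 genes tested were called in 10_11 and 5.76% and 4.91% in Karl. At 21 d against 7 d in 10_11, 343 of the 557 genes (61.6%) were called higher and 362 of the 504 (71.8%) lower, where 14.9% and 14.1% of all genes were called. Taken from the other side, the 116 genes called higher in 10_11 had a median log2 change of 1.32 in Karl and 1.92 in 10_11, and the 126 called lower -1.29 in Karl and -1.41 in 10_11. These lists include the library labelled replicate C. Without it the 35 genes called higher in 10_11 had medians of 1.298 in Karl and 2.12 in 10_11, and the 32 called lower -2.16 in Karl and -2.13 in 10_11, an alternative added after the data were seen.

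The lines' changes from 7 d to 14 d were tested against each other for every gene. By edgeR 1 gene passed, 0.01% of the 9973 tested, and 571 had a p under 0.05 before adjustment. Leaving out 10_11 14 d replicate C, 1 of 10382 genes passed and 746 had such a p. With no difference between the lines, a share near 0.05 of the genes would have such a p. DESeq2 called 3 other genes. A change called in Karl and not in 10_11 is therefore not shown to differ between them. The called gene was HORVU6Hr1G024230, whose change from 7 d to 14 d was -10.81 in Karl and 3.10 in 10_11 on the log2 scale, a difference of 13.91 as 10_11 minus Karl (edgeR adjusted p = 0.042). Its 10_11 libraries had 110, 1.08 and 0.787 CPM at 14 d and 8.07, 3.80 and 0 CPM at 7 d, and only replicate A of 14 d stood above 10 CPM. The call was lost without that library, without any 7 d library of either line and without any 14 d library of Karl, and stayed without replicate B or C of 10_11 at 14 d. It was also lost with the replicate labels as a block and with the 12 compared libraries alone. The other named genes did not pass the test of the difference, with edgeR adjusted p of 0.852 for HORVU4Hr1G059390, 0.894 for HORVU3Hr1G059030 and 0.852 for HORVU5Hr1G051010. In 10_11 HORVU5Hr1G051010 fell by 1.18 on the log2 scale (SE 0.23, edgeR adjusted p = 0.0102), with 11212, 12836 and 9638 CPM in replicates A, B and C of 14 d and 20643 to 28984 CPM at 7 d.

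**Figure D5:**
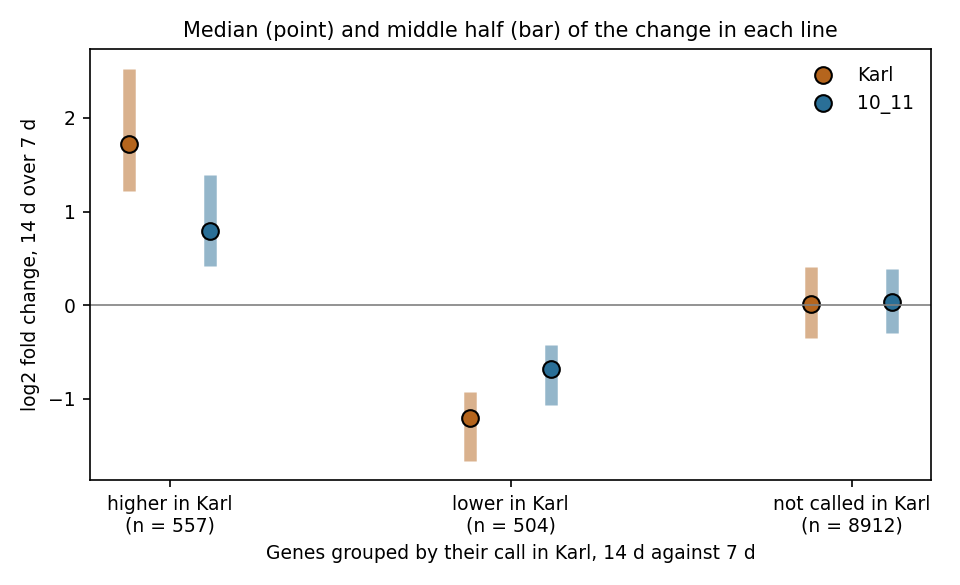
Median (point) and quartiles (ends of the bar) of the log2 fold change from 7 d to 14 d (y axis) in Karl and 10_11, for genes called higher, called lower and not called in Karl (x axis). The medians are 1.72 and 0.79 for genes called higher and -1.20 and -0.68 for those called lower, in Karl and 10_11, and near 0 for the 8912 genes not called.

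The share of genes called was similar on all chromosomes. By the chromosome read from the identifier, 10.3% of tested genes were called on chromosomes 1 and 7 and 10.9% on chromosomes 3 and 5, with the other 3 in between, against 10.6% over all genes. Of the 237 tested genes whose identifier gives 0 for the chromosome, 11.8% were called, 5.91% higher and 5.91% lower. The share that rose was lowest on chromosome 4, at 4.76%, and highest on chromosome 3, at 6.39%. The share that fell was highest on chromosome 4, at 5.99%, and lowest on chromosome 1, at 4.35%. Of 9729 pairs of neighbouring tested genes, 121 had both genes called, of which 38 both rose, 37 both fell and 46 went opposite ways. Of the placed genes that rose 12.9% had a neighbour that rose, against 10.8% of all placed genes, and of those that fell 14.7% had a neighbour that fell, against 9.77%. The longest runs were 3 neighbours that rose and 4 that fell. Neighbours can be near-identical copies that share reads, and these shares are descriptions with no test.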

How the data were processed

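Per the labels' protocols, RNA was extracted with Trizol from pools of frozen flag leaves, and MARS-seq libraries were sequenced on a NextSeq 500. The authors deposited 1 table with raw whole-number counts per gene and library, per the file headers. For each pair of groups the authors also deposited a log2 fold change with a p-value before and after adjustment. For this pair their log2 fold change runs 7 d over 14 d, read from the values: 99.7% of tested genes had the opposite sign here. The submitters' processing notes name STAR 2.4.2a, HTSeq, cutadapt, bcl2fastq and DESeq2. Build, annotation and whether tags were collapsed to molecules were not given in the sources used here, so counts may include amplification copies. Genes with near-identical copies may have shared or lost reads.

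The tests on counts were run in R 4.3.3 with edgeR 4.0.16. After filterByExpr 9973 genes remained, and TMM scaling was applied. A two-sided quasi-likelihood test with a mean per group was fitted over the 18 libraries (12 residual degrees of freedom), and p-values were adjusted over all genes tested. The standard error is the log2 fold change over the root of F. Whole-library measures used an exact permutation test. Code was tested on simulated data. Alternatives were DESeq2 1.42.0, other scalings, filters and thresholds, thinned counts, fewer libraries and a replicate block. The comparison, the rules and the alternatives were chosen with earlier results of these data known, and the named genes by the rule given with them. No pair of replicate libraries agreed within sampling noise.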

Additional observations from a re-analysis of the deposited data

Results flagged for a closer look

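The change of HORVU6Hr1G024230 from 7 d to 14 d was singled out because it passed the test between Karl and 10_11, with a difference of 13.91 on the log2 scale as 10_11 minus Karl (edgeR adjusted p = 0.042). It was the only one of the genes tested that did, and the call depended on the libraries as given in the comparison of the lines.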

How the results depend on the processing

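The count of 1061 genes called in Karl, of 9973 tested, was 1952 with library totals alone and 649 of 5392 tested with thinned counts. It was 61 when tested against a change of at least 2-fold and 314 at an adjusted p under 0.01. Without 1 of the 6 compared Karl libraries it was 469 to 899, and without 10_11 14 d replicate C it was 1108. The number tested also changed in these fits. The size factors of DESeq2 gave 1050, its test 1272, no filter 957 of 13626 tested and the 6 libraries alone 1009 of 8020. With a replicate block it was 858, and HORVU3Hr1G059030 was no longer called (edgeR adjusted p = 0.0564). Libraries of 7 d are numbered and those of 14 d lettered, so the block was set within each style. Same-labelled samples gave r of -0.469 to 0.395 over 21 pairs. Differently labelled samples of the same style gave -0.536 to 0.524 over 42 pairs. These r are not of the levels themselves, for which pairs of the 6 Karl libraries gave r of 0.80 to 0.967. Whether same-labelled samples shared pots or handling was not tested. The test between the lines' changes called 3 genes by DESeq2, 0 with the replicate block, 0 with the 12 compared libraries alone and 0 to 1 without 1 library. DESeq2 gave no adjusted p for HORVU6Hr1G024230. HORVU4Hr1G059390 and HORVU5Hr1G051010 kept direction and call in all 14 alternatives run, and HORVU6Hr1G024230 in all 13. Without 1 library, the median change in 10_11 was 0.58 to 1.06 for genes higher in Karl and -0.93 to -0.62 for those lower, with the genes chosen again each time. The difference of 158 in genes holding 50% of the counts, between means of 264 at 14 d and 107 at 7 d, was 19 for 25% of the counts, between 39.3 and 20.3. The 763 more genes detected were 1178 at 3 counts or more and 1206 in unthinned counts. The share of the 20 most abundant genes, 17.0% at 14 d and 25.2% at 7 d, differed by -8.24 points. For the 100 most abundant, with 37.5% and 49.5%, the difference was -11.95 points. Depth at 7 d limits what can be called among low genes.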
